A study of Arabidopsis thaliana with 12 samples.

Results

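The response of ago10-1 root tips to the synthetic cytokinin 6-benzyladenine (BAP) was examined in 6 RNA-seq libraries, 3 from seedlings treated with BAP for 2 h and 3 from mock seedlings, of the 12 libraries of the series. The 6 were taken by their headings, which name genotype, treatment and replicate 1, 2 or 3, and libraries with the same number are called a pair. The ago10-1 line is an Arabidopsis thaliana mutant of the Col-0 background with a T-DNA insertion in ARGONAUTE10 (AGO10), so every library described here carries that lesion, and it is a single allele. Seedlings grown on plates were 6 days old, counted from germination. According to the methods, treated plants were sprayed with 1 µM BAP and the others were left untreated, so that the spray and BAP cannot be told apart, while the labels call the untreated plants mock. Tips were cut 1 to 3 mm from the end (1 mm in the labels), and RNA came from 50 mg of tissue. The other 6 libraries are Col-0 without and with BAP and enter only where the response of ago10-1 is set beside that of the wild type.

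Cytokinins are adenine-derived hormones sensed by histidine kinase receptors, which pass a phosphate through histidine phosphotransfer proteins (AHPs) to type-B response regulators, transcription factors that switch on target genes. Type-A response regulators are among the first targets and dampen the pathway. In the root tip the hormone limits the size of the meristem, promotes the transition to elongation and differentiation, and helps to set where xylem and procambium form. AGO10 is a small RNA-binding protein known for sequestering miR165/166, which otherwise lowers the transcripts of the HD-ZIP III transcription factors.

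Reads on genes ranged from 19966023 to 31638308 in the mock libraries and from 23003052 to 34052023 in the BAP libraries. Values are given as normalized counts, in which the size factor of each library has been divided out and gene length has not. AGO10 (AT5G43810, chromosome 5 of TAIR10 from 17610744 to 17616907) stood at 187, 175 and 138 normalized counts in mock and 130.4, 175 and 167 after BAP in ago10-1, against 1039.8, 696 and 914 in Col-0 mock and 568, 926 and 1051 in Col-0 BAP. The mutant mean was 18.9% of the Col-0 mean in mock and 18.6% after BAP, with no overlap of the genotypes (two-sided exact permutation test, p = 0.1 in each treatment, the smallest p that 3 against 3 allow). Markers of the root tip were present in all 6 libraries, among them those of dividing cells (CYCB1;1, KNOLLE, CDKB2;1, CDKB2;2 and HINKEL), of the quiescent centre (WOX5, PLT1 and PLT2), of the root cap, of the vasculature, of the endodermis and of root hairs. Of 7 markers of green shoot tissue, LHCB1.1 and LHCB2.1 were listed at 0 in at least 1 library, and the 7 together summed to 129 to 248 normalized counts in mock and 256 to 505 after BAP. As these are bulk samples, more cells of a type and more RNA per cell cannot be told apart in any result below.

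Most genes that changed after BAP were higher. The change was estimated within pairs, with the replicate number as a block in limma, on log2(normalized count + 1), over 19206 of 32833 genes, those whose mean over the 12 libraries reached 10. A gene is called where its unadjusted p is under 0.01, the threshold of the study. By this rule 884 genes (4.60% of those tested) were called higher and 95 (0.495%) lower, where about 192 calls in all would come from chance. With Benjamini-Hochberg adjustment over all genes 51 (0.266%) had a p under 0.05, 50 of them higher. The changes were moderate, with a median log2 fold change of 0.61 in the genes called higher and -0.40 in those called lower, and 136 and 15 genes respectively moved by more than 1 on the log2 scale. In 877 of the 884 genes and in all 95 the 3 pairs moved in 1 direction, which held for 37.2% of all genes tested. The block fit selects genes whose pairs change alike, so this agreement follows from the rule and is not separate support. The BAP and mock groups did not overlap in 287 of the 884 genes and in 53 of the 95. Over all 19206 genes tested this held for 1767, so groups that do not overlap are no strong sign of a response in a single gene. The median gene of all tested had a log2 fold change of 0.01.

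The pairs did not respond equally. Over the 884 genes called higher, the median log2 change was 0.64 in pair 1, 0.37 in pair 2 and 0.77 in pair 3, and pair 2 had the smallest of the 3 changes in 639 of them. Counts of calls followed the pairs used. They came to 568 without pair 1, 2994 without pair 2 and 281 without pair 3. With no block, where differences between the pairs count as error, limma called 91 genes higher and 18 lower and none had an adjusted p under 0.05. All 109 of these were also called with the block.

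**Figure D1:**
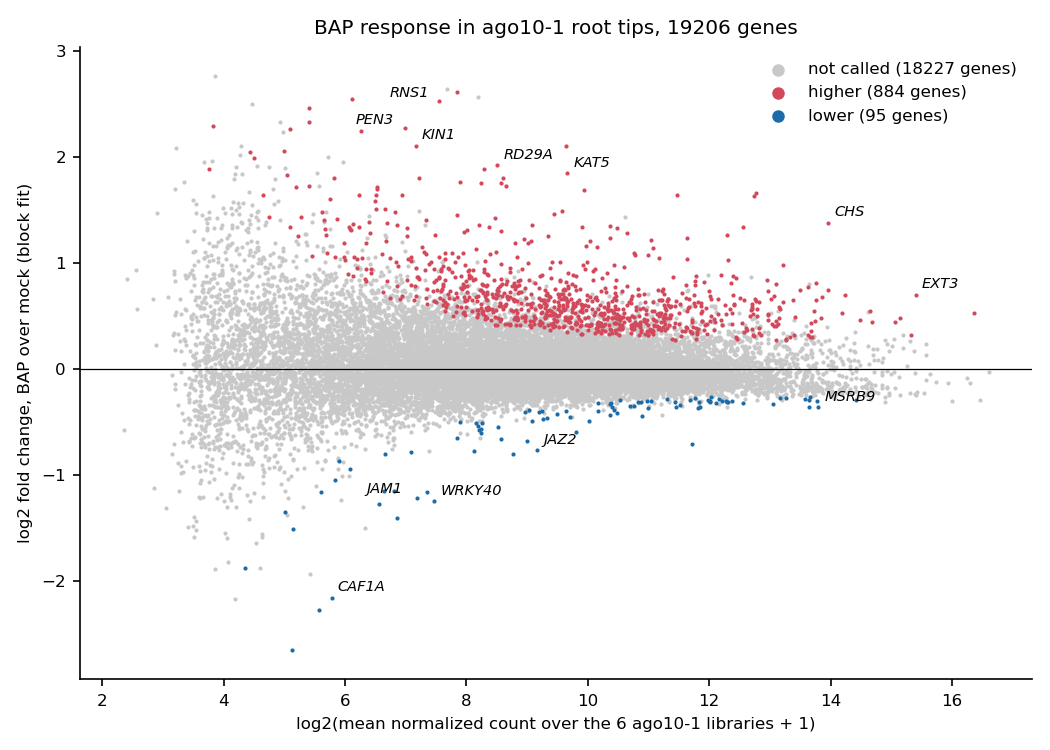
Log2 fold change of BAP over mock in ago10-1 (vertical axis, block fit in limma) against the log2 mean normalized count over the 6 libraries (horizontal axis), 1 point per gene tested. The 884 genes called higher lie along the upper edge of the cloud, many genes of low mean have changes as large and are not called, the 95 called lower are fewer, and most of the latter have changes smaller than 1 on the log2 scale.

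The gene of smallest p was KAT5 (AT5G48880, chromosome 5 of TAIR10 from 19814395 to 19817955), encoding a 3-keto-acyl-CoA thiolase. It stood at 80.8, 532 and 392 normalized counts in mock and 247, 1836 and 1749.8 after BAP. Library 1 was low in both treatments and the groups overlapped, yet each BAP library was above the mock library of its own pair (log2 fold change 1.85, SE 0.14, adjusted p = 0.014, limma). KAT5 overlaps an annotated neighbour, and whether reads were assigned by strand is not given in the sources used here.

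The largest rise, among called genes averaging 50 normalized counts or more in the 6 libraries, was that of AT5G37990, a gene of a methyltransferase family, with 12.2, 67.9 and 195 normalized counts in mock and 289, 249 and 557 after BAP (log2 fold change 2.61, SE 0.49, adjusted p = 0.08, limma). Its changes in the 3 pairs were 4.45, 1.86 and 1.51, so that the size of the mean change rests on the low mock library 1, although the groups did not overlap. A neighbour of the same family, AT5G38020, had 105, 277 and 639 normalized counts in mock and 987, 768 and 1978 after BAP (log2 fold change 2.1, SE 0.30, adjusted p = 0.043, limma). The 2 are paralogs and may share reads. RNS1, a secreted ribonuclease known from phosphate starvation and wounding, stood at 26.9, 31.6 and 74.1 normalized counts in mock and 69.7, 294 and 624 after BAP (log2 fold change 2.52, SE 0.35, adjusted p = 0.043, limma). Here BAP library 1 lay below the highest mock library, so the groups overlapped, and pairs 2 and 3 changed more than pair 1. PLA2A, a lipid acyl hydrolase of the patatin family, was at 63.6, 0 and 22.4 normalized counts in mock and 205, 12.5 and 106 after BAP and the groups overlapped (log2 fold change 2.54, SE 0.47, adjusted p = 0.079, limma), with few reads in pair 2. AT5G16010, annotated as a steroid dehydrogenase family protein, stood apart between the groups, with 181, 177 and 153 normalized counts in mock and 692, 436 and 695 after BAP (log2 fold change 1.80, SE 0.18, adjusted p = 0.019, limma). It was also called without the block. Further genes among the 10 largest rises were AT1G14120 of the 2-oxoglutarate-dependent oxygenases (log2 fold change 2.24) and MLP328, a major latex protein-like gene (1.88), whose levels differed more between pairs than between treatments.

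**Figure D2:**
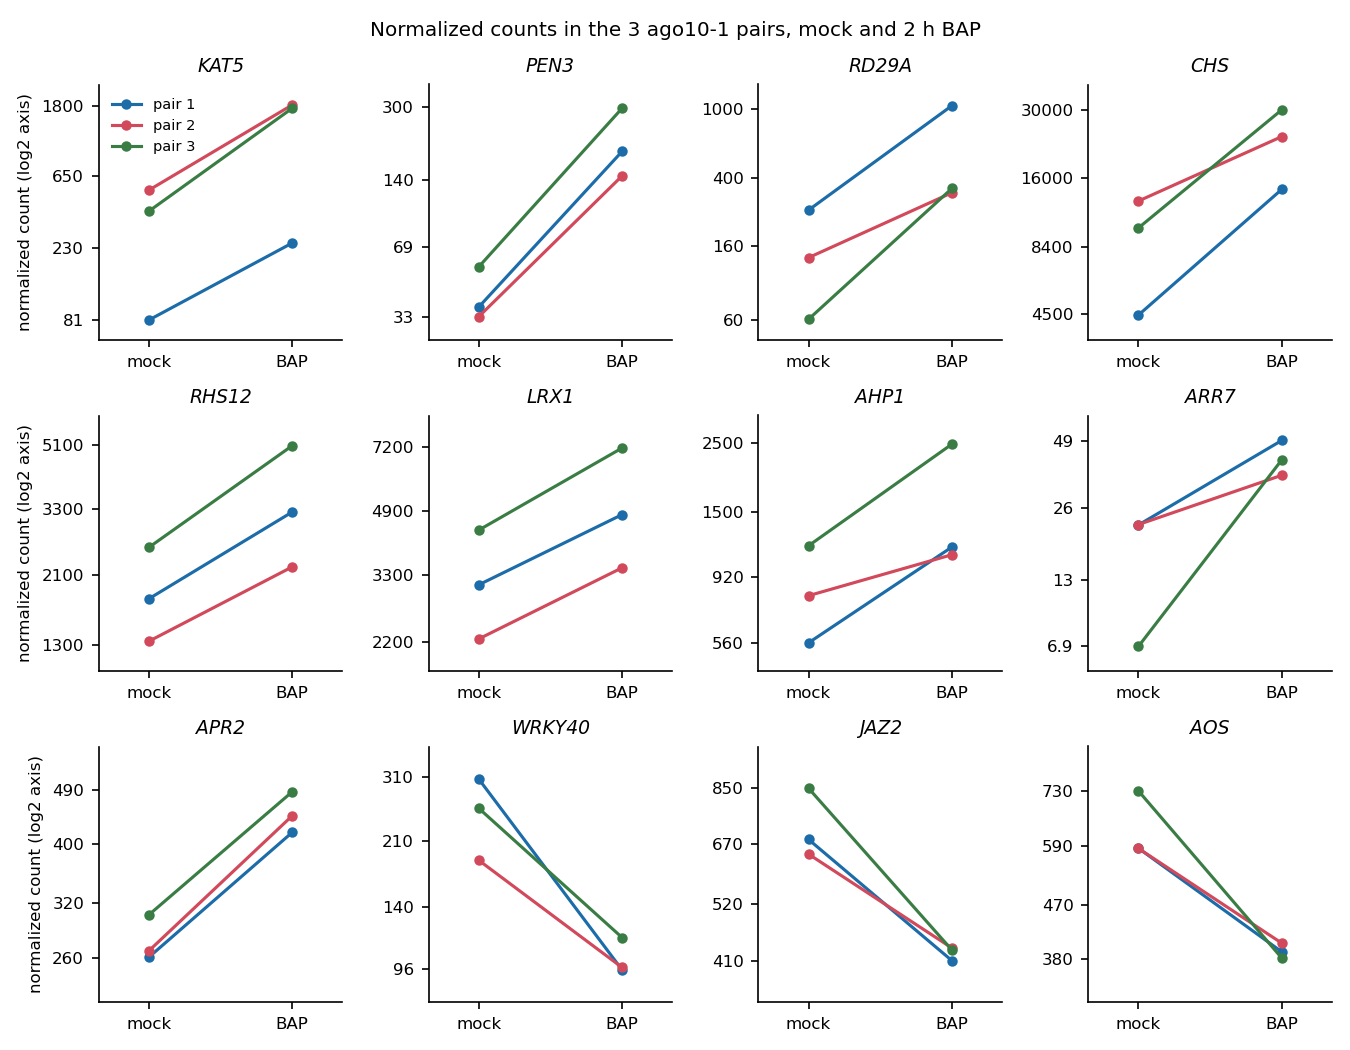
Normalized counts (log2 axis, a separate scale in each panel) of 12 genes in mock and BAP libraries, with lines joining the libraries of a pair. All lines rise for the first 9 genes and fall for WRKY40, JAZ2 and AOS, and for LRX1 the pairs start at different levels and run nearly parallel.

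Calls among genes of cytokinin signalling itself were few in number, though above the share of all genes in the lists that held them. The type-A response regulators are known as primary targets of the hormone. Of 10 measured, 2 were called higher (20%, against 4.60% of all genes) and 0 lower. The median log2 fold change was 0.35 against 0.01 over all genes. None had an adjusted p under 0.05, and no type-A gene was called without the block. ARR8 had 2140.1, 2599 and 2312 normalized counts in mock and 3138, 2689 and 3473 after BAP (log2 fold change 0.40, SE 0.12, unadjusted p = 0.0093, limma). ARR9 had 893, 1012 and 994 normalized counts in mock and 1279, 1099 and 1433 after BAP (log2 fold change 0.39, SE 0.11, unadjusted p = 0.0085, limma). In both genes the groups did not overlap, pairs 1 and 3 responded and pair 2 hardly did. The median change of the list was 0.53 in pair 1, 0.02 in pair 2 and 0.63 in pair 3. Both overlap another annotated gene.

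ARR7 had the largest estimate of the list and few reads, with 22.02, 22.1 and 6.89 normalized counts in mock and 49.4, 35.4 and 41.1 after BAP (log2 fold change 1.40, SE 0.44, unadjusted p = 0.013, limma). Every BAP library lay above every mock library, but the p missed the threshold. ARR6 stood at 514, 652 and 617 normalized counts in mock and 862, 615 and 1084 after BAP (log2 fold change 0.49, SE 0.17, unadjusted p = 0.022, limma), ARR5 at 729, 889 and 897 normalized counts in mock and 988, 695 and 1424 after BAP (log2 fold change 0.25, SE 0.18, unadjusted p = 0.2, limma). For ARR5 and ARR6 the BAP library of pair 2 was below its mock library. The estimates for ARR3 and ARR4 were 0.32 and 0.32, that for ARR15 0.32. ARR16 and ARR17 had few reads and estimates of 0.45 (SE 0.95) and -0.88 (SE 0.60), and no change was detectable at this depth.

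The letters AGATT, the core of the sequence that type-B response regulators are known to bind, were searched on both strands in the 250 bases before each annotated gene start. They stood in 7 of the 10 type-A windows (70%) and in 62.6% of the windows of all genes tested. The ARR7 window is shown because it holds 3 matches, at 106, 95 and 80 bases before the start, with the motif in capitals (RefSeq, TAIR10.1 assembly whose gene positions equal those of TAIR10, chr1:6579315-6579564, minus strand, 5′ to 3′).
ARR7: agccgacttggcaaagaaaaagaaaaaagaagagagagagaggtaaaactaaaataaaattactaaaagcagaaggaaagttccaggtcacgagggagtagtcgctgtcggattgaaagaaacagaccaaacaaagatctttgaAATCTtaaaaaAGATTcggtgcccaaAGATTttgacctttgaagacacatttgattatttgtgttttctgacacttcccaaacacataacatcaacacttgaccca

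Upstream of these genes, the phosphotransfer protein gene AHP1 had 562, 799 and 1162 normalized counts in mock and 1151, 1086 and 2487 after BAP (log2 fold change 0.86, SE 0.14, adjusted p = 0.06, limma). It had the smallest p of these lists, with changes of 1.03, 0.44 and 1.1 in the 3 pairs, and BAP libraries 1 and 2 lay within the range of the mock libraries. The receptor genes AHK3 (2102, 1178 and 1169 normalized counts in mock and 2967, 1284 and 1662 after BAP, log2 fold change 0.38, SE 0.11, unadjusted p = 0.007, limma) and AHK4 (3590.0, 3305 and 4423 normalized counts in mock and 4072, 4686 and 5845 after BAP, log2 fold change 0.36, SE 0.09, unadjusted p = 0.0036, limma) were called higher as well, with overlapping groups in both. With them 3 of the 8 receptor and phosphotransfer genes tested were called higher (37.5%, against 4.60% of all genes, list median 0.22). None of the 3 was called without the block. Of 6 type-B response regulators tested, 0 were called and the median was -0.04. ARR1, ARR11, ARR12 and ARR14 had the smallest p of these, from 0.2 for ARR14 to 0.61 for ARR1.

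No gene was called among the cytokinin oxidases and glucosyltransferases (7 tested, median 0.30), which inactivate the hormone, among 15 genes of its synthesis (median 0.02), or among 9 cytokinin response factors and other early cytokinin genes (median 0.16). CKX4 had 19.6, 1.58 and 5.17 normalized counts in mock and 67.4, 6.25 and 6.08 after BAP (log2 fold change 1.14, SE 0.60). UGT76C1 and UGT85A1 had estimates of 0.31 and -0.22. UGT76C2, a cytokinin N-glucosyltransferase, had 267, 219 and 207 normalized counts in mock and 567, 239 and 281 after BAP (log2 fold change 0.55, SE 0.19) and responded mainly in pair 1. IAA3, also known as SHY2, which links cytokinin to auxin at the transition zone, had 188, 109 and 129 normalized counts in mock and 229, 131 and 221 after BAP (log2 fold change 0.44, SE 0.18, unadjusted p = 0.042, limma). Its direction was the same in all 3 pairs, while the p did not pass. EXPA1, CRF1 and CRF2 had estimates of 0.31, 0.34 and -0.17. In synthesis the isopentenyltransferase genes IPT5 and IPT7 stood at 0.44 and -1.55, LOG8, which releases the free base, at 0.29 and the hydroxylase gene CYP735A1 at 0.72, none past the threshold.

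Root hair genes were the list with the highest share of calls. Root hairs are outgrowths of epidermal cells that begin above the meristem, and their genes encode wall proteins, expansins, peroxidases and regulators of tip growth. All 23 genes passed the filter, 20 (87.0%, against 4.60% of all genes) were called higher and 0 lower, 5 had an adjusted p under 0.05, and the median log2 fold change was 0.60. Estimates ranged from -0.20 to 0.87, with medians of 0.57, 0.41 and 0.82 in pairs 1, 2 and 3. None of the 20 was called without the block.

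RHS12, a pectin methylesterase-related root hair gene, had 1780.3, 1330.1 and 2533 normalized counts in mock and 3229.7, 2216 and 5090.4 after BAP (log2 fold change 0.87, SE 0.09, adjusted p = 0.019, limma). LRX1, a leucine-rich repeat extensin of the hair wall, had 3115, 2240.0 and 4349 normalized counts in mock and 4780.4, 3457 and 7175 after BAP (log2 fold change 0.66, SE 0.08, adjusted p = 0.027, limma). PRP1, a proline-rich wall protein, had 1879, 3133 and 6007 normalized counts in mock and 3053, 5582 and 12767 after BAP (log2 fold change 0.87, SE 0.10, adjusted p = 0.02, limma). In each of the 3 genes the BAP and mock groups overlapped, with pair 3 highest, and within every pair BAP was higher. PER7 (log2 fold change 0.74, SE 0.10, adjusted p = 0.035, limma), a peroxidase, and PRP3 (log2 fold change 0.65, SE 0.10, adjusted p = 0.047, limma) were higher in every pair too. The expansin genes EXPA7 (log2 fold change 0.62) and EXPA18 (0.57), the NADPH oxidase gene RBOHC (0.45), the phosphatidylinositol transfer gene COW1 (0.55) and the transcription factor gene RSL4 (0.60), a known driver of hair growth, were also called higher.

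The 3 members that were not called all encode transcription factors. RHD6, which starts hair formation, had 644, 815 and 999.7 normalized counts in mock and 600.1, 829.8 and 745 after BAP (log2 fold change -0.17, SE 0.12). RSL1 (-0.20, SE 0.16) and RSL2 (0.12, SE 0.13) were not called either. RSL1 is known to act with RHD6 at the start and RSL2 with RSL4 in growth.

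Markers of other cell types of the tip gave the following sums beside this. The 7 root hair markers summed to 16746 to 26249.7 normalized counts in mock and to 22146 to 44734 after BAP. The 5 dividing cell markers summed to 3378 to 3754 and 2785 to 3547. The 3 root cap markers summed to 594 to 1376 and 1123 to 1746, the 5 xylem markers to 4659 to 9148 and 6053 to 10749.8 and the 2 endodermis markers to 6559 to 10418 and 7173 to 15238. Within pairs, root cap and xylem sums were higher after BAP in all 3, endodermis sums in pairs 1 and 3, and dividing cell sums in none. Of the longer list of 24 dividing cell genes 0 were called, 3 had a positive estimate, and the median was -0.17 (-0.08, -0.01 and -0.32 in the pairs). The part of the tissue's make-up or of the position of the cut in the root hair result was not tested.

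Sequences before the root hair genes were searched for the root hair element, known from Arabidopsis as the binding site of RHD6-type factors and spelled here as TG, any 3 or 4 bases, G or T, and CACG, on both strands. Its last letters can overlap those of CACGTG, the G-box, which stood in 0 of the 23 root hair windows and in 7.27% of those of all genes tested. The root hair element stood in the 250 bases before the gene start in 11 of the 23 genes (47.8%). It stood in 4.38% of all genes tested and in 8.64% of the 880 protein-coding genes called higher. Both the list and the element were chosen for root hairs, so the high share in the list is not support for a link to BAP. All 11 genes with the element were called higher, and the 3 genes not called had none. Of the 23 list genes 20 were called higher, RHS12 and COW1 without the element among them. These counts therefore do not link the element to the calls. A match describes the letters only. The windows of LRX1 and EXPA7, with 2 matches each, and of PRP1 and PRP3, with 1 each, are shown as examples of the 11, with the element in capitals (RefSeq, TAIR10.1, plus strand, 5′ to 3′; chr1:4069742-4069991, chr1:4276255-4276504, chr1:20504651-20504900 and chr3:23182472-23182721 in this order).
LRX1: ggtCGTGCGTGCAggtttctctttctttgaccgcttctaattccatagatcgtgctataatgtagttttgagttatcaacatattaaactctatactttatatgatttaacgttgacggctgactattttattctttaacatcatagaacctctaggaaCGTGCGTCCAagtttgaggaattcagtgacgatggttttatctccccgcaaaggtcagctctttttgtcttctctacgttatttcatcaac
EXPA7: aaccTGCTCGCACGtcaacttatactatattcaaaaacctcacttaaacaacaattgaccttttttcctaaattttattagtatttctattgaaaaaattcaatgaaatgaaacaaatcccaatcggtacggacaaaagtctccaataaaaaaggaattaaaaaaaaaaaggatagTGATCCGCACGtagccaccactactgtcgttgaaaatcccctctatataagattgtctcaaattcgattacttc
PRP1: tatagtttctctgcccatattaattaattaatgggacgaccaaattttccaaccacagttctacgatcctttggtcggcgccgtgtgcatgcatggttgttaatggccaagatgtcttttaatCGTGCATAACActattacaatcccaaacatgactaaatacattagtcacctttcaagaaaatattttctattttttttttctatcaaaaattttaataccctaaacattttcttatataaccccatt
PRP3: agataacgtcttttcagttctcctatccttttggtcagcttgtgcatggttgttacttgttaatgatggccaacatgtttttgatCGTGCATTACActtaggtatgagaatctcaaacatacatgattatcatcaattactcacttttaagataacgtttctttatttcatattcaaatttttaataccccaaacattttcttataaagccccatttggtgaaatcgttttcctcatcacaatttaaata

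Some of the 30 genes of smallest p encode wall proteins or enzymes and were not in this list. Extensins are hydroxyproline-rich wall glycoproteins. EXT12 had 2826, 2786 and 6231 normalized counts in mock and 5013, 5101 and 11493 after BAP (log2 fold change 0.86, SE 0.08, adjusted p = 0.018, limma) and EXT13 4628, 3945 and 8452 normalized counts in mock and 7893, 7074 and 15801 after BAP (log2 fold change 0.84, SE 0.08, adjusted p = 0.018, limma). The changes in the 3 pairs, 0.83, 0.87 and 0.88 for EXT12 and 0.77, 0.84 and 0.90 for EXT13, were nearly equal, although pair 3 stood well above the others and the groups overlapped. EXT3 had 39271, 26086 and 32519 normalized counts in mock and 70216, 38448 and 53009 after BAP (log2 fold change 0.70, SE 0.09, adjusted p = 0.033, limma). HRGP1 (log2 fold change 0.68, SE 0.08, adjusted p = 0.027, limma), the cellulase gene GH9C1 (log2 fold change 0.79, SE 0.09, adjusted p = 0.022, limma) and XTH13 (log2 fold change 0.96, SE 0.13, adjusted p = 0.033, limma), whose product cuts and rejoins xyloglucan, followed. HA7, a plasma membrane proton pump gene, was higher as well (log2 fold change 0.67, SE 0.08, adjusted p = 0.027, limma). Extensins are close paralogs with repeated sequence, so single members are uncertain.

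The remaining genes among the 30 of smallest p had varied roles. PGSIP4 (log2 fold change 1.00), a glycosyltransferase family member, the phosphatase gene PAP7 (0.91), the transporter family gene AT1G72140 (1.01), the peroxidase AT3G49960 (0.73), CYP87A2 (0.65), AT2G29620 (0.85), AT5G62210 (1.75) and the homocysteine hydrolase gene SAHH2 (0.80) were all higher, with adjusted p from limma between 0.02 for AT5G62210 and 0.033 for CYP87A2. The only gene with an adjusted p under 0.05 that was lower was AT5G04120, of the phosphoglycerate mutase family, with 2554, 3400.3 and 6669 normalized counts in mock and 1722, 2102 and 3640.3 after BAP (log2 fold change -0.71, SE 0.09, adjusted p = 0.033, limma). Its 3 pairs all fell although the groups overlapped.

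Most tested genes of the flavonol pathway were higher. Flavonols are made from coumaroyl-CoA by chalcone synthase (CHS), chalcone isomerase (CHI), its helper CHIL, flavanone 3-hydroxylase (F3H), flavonoid 3′-hydroxylase (F3'H) and flavonol synthase (FLS1), and act in roots as antioxidants and modifiers of auxin transport. Of 8 members tested 6 (75%, against 4.60%) were called higher and 0 lower, 5 had an adjusted p under 0.05, and the median log2 fold change was 0.86. All 3 pairs took part, with medians of 0.99, 0.83 and 0.88. FLS1 alone was also called without the block.

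CHS had 4461, 12877 and 10026 normalized counts in mock and 14359, 23448 and 30072 after BAP (log2 fold change 1.38, SE 0.15, adjusted p = 0.02, limma). CHI had 181, 801 and 499 normalized counts in mock and 702, 1787 and 1936 after BAP (log2 fold change 1.69, SE 0.16, adjusted p = 0.018, limma). FLS1 had 1644, 3885 and 3638 normalized counts in mock and 5286, 7239 and 8449 after BAP (log2 fold change 1.27, SE 0.14, adjusted p = 0.02, limma). For these enzymes mock library 1 was the lowest of all 6 libraries, and the groups were apart in CHS and FLS1 but overlapped in CHI. CHIL (log2 fold change 0.83), F3'H (0.89) and the flavonol glucosyltransferase gene UGT78D2 (0.54) were called too. MYB12, an activator of the pathway, had 507, 676 and 799.7 normalized counts in mock and 812, 537 and 1078 after BAP (log2 fold change 0.26, SE 0.18) and was not called. F3H stood at no more than 7.30 normalized counts in any library and was left out by the filter. Both F3H and CHS overlap another annotated gene, and the part of this in their counts was not tested.

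The pathway before it, phenylpropanoid and lignin monomer synthesis, had 7 of 17 genes called higher (41.2%) and 0 lower, all 17 with a positive estimate and a median of 0.44. Only 1 of the 7 was called without the block. 4CL3, the coumarate ligase known to feed flavonoids, was the most changed, with 152, 598 and 515 normalized counts in mock and 539, 1341 and 1442 after BAP (log2 fold change 1.49, SE 0.14, adjusted p = 0.018, limma). PAL1, the entry enzyme, had 14545, 14415 and 14717 normalized counts in mock and 23253, 18603 and 30227 after BAP (log2 fold change 0.69, SE 0.12, unadjusted p = 0.00043, limma), with 3 closely spaced mock libraries below all BAP libraries. C4H (log2 fold change 0.48, SE 0.09, unadjusted p = 0.00073, limma) and COMT1 (log2 fold change 0.69, SE 0.14, unadjusted p = 0.0011, limma) followed. The medians of the list were 0.59, 0.07 and 0.65 in the pairs.

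Enzymes that conjugate and export small molecules were higher in part. Of 24 tau class glutathione transferases, which attach glutathione to reactive compounds, 9 (37.5%) were called higher and 0 lower, with a median of 0.41, and 4 of them held without the block. GSTU17 had 147, 275 and 153 normalized counts in mock and 398, 517 and 490.5 after BAP (log2 fold change 1.34, SE 0.17, adjusted p = 0.033, limma), with every BAP library above every mock library. GSTU25 (log2 fold change 0.63, SE 0.13, unadjusted p = 0.0011, limma), GSTU6 (log2 fold change 0.39, SE 0.09, unadjusted p = 0.0023, limma) and GSTU4 (log2 fold change 0.86, SE 0.21, unadjusted p = 0.0028, limma) had the next smallest p. GSTU17 and GSTU6 overlap annotated neighbours, and near-identical members may share reads.

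Among 13 UDP-glycosyltransferases tested, 6 (46.2%) were called higher (median 0.52), 3 of them also without the block. UGT84A1, which makes hydroxycinnamate glucose esters, had 86.9, 247 and 245 normalized counts in mock and 576, 395 and 844 after BAP (log2 fold change 1.72, SE 0.32, unadjusted p = 0.00058, limma), and UGT84A2 had a log2 fold change of 0.84. The neighbours UGT73B1, UGT73B2 and UGT73B3 of chromosome 4 had 1.06, 0.65 and 0.52, and UGT75D1 0.63. Of the 7 MATE transporters tested in the list, exporters of organic anions and flavonoids, 5 were called higher (median 0.50), 2 of them without the block. DTX35, a carrier linked to flavonoid levels in Arabidopsis, led with 1099, 1323 and 1534 normalized counts in mock and 3832, 1917 and 3231 after BAP (log2 fold change 1.14, SE 0.20, unadjusted p = 0.00041, limma). DTX30, DTX40, DTX33 and DTX27 had 1.01, 0.95, 0.50 and 0.49. The share in this list does not stand for the whole family. Of 41 tested genes with MATE efflux as product name, 7 (17.1%) were called higher and 0 lower, with a median of 0.13.

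Sulfate uptake and assimilation, which supplies cysteine and glutathione, had 6 of 27 genes called higher (22.2%) and 0 lower, with a median of 0.27, and 4 of the 6 were called without the block. APR2, an isoform of the adenylylsulfate reductase, had 261, 267 and 306 normalized counts in mock and 418, 445 and 487 after BAP (log2 fold change 0.70, SE 0.12, unadjusted p = 0.00047, limma). Its pairs changed by 0.68, 0.74 and 0.67, nearly the same in each, and the groups did not overlap. APR3 had 1979, 2523 and 2149 normalized counts in mock and 3208, 3409 and 3395 after BAP (log2 fold change 0.60, SE 0.09, unadjusted p = 0.00014, limma). The transporter genes SULTR1;2 (log2 fold change 0.69, SE 0.10, adjusted p = 0.046, limma), SULTR3;4 (log2 fold change 1.5, SE 0.28, unadjusted p = 0.00062, limma) and SULTR3;3 (log2 fold change 1.03, SE 0.21, unadjusted p = 0.0012, limma) and the serine acetyltransferase gene SERAT2;1 (log2 fold change 0.52, SE 0.12, unadjusted p = 0.0024, limma) made up the rest.

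The redox list was the only one besides jasmonate synthesis and the early wound genes in which calls went both ways. Of 11 enzymes tested 5 were called higher and 3 lower (45.5% and 27.3%, against 4.60% and 0.495%). VTC2, of ascorbate synthesis, had 744, 869 and 963 normalized counts in mock and 1192, 1149.9 and 1259 after BAP (log2 fold change 0.49, SE 0.10, unadjusted p = 0.0014, limma), and the glutathione reductase gene GR1 7669, 8248 and 7157 normalized counts in mock and 11124, 9471 and 10271 after BAP (log2 fold change 0.42, SE 0.09, unadjusted p = 0.0019, limma). The methionine sulfoxide reductase genes went the other way. MSRB9 had 16753, 15803 and 15347 normalized counts in mock and 12651, 11806 and 12884 after BAP (log2 fold change -0.36, SE 0.08, unadjusted p = 0.002, limma) and MSRB8 182, 141 and 191 normalized counts in mock and 97.8, 87.6 and 110.3 after BAP (log2 fold change -0.79, SE 0.18, unadjusted p = 0.0023, limma), both with groups apart. These neighbours on chromosome 4 are paralogs.

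Genes known from cold and abscisic acid were higher. Of 11 tested 7 (63.6%) were called higher and 0 lower, 2 with an adjusted p under 0.05, all 11 with a positive estimate, and the median was 0.68. The list moved in pairs 1 and 3 (medians 1.11 and 1.25) more than in pair 2 (0.31). RD29A, also called LTI78, had 259, 137 and 60.3 normalized counts in mock and 1047, 327 and 347 after BAP (log2 fold change 1.92, SE 0.23, adjusted p = 0.027, limma). KIN1 had 63.6, 71.9 and 30.2 normalized counts in mock and 254, 178 and 256 after BAP (log2 fold change 2.11, SE 0.32, adjusted p = 0.051, limma) and its paralog KIN2 764, 1708 and 1809 normalized counts in mock and 4196, 3298 and 5151 after BAP (log2 fold change 1.64, SE 0.23, adjusted p = 0.043, limma). In all 3 genes every BAP library was above every mock library, and KIN1 and KIN2 were called without the block as well. The dehydrin gene LTI30 had a log2 fold change of 1.28. COR15A and COR15B, other cold genes, were listed at 0 in all 6 libraries.

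The core of the dehydration-responsive element, CCGAC on either strand, stood in the 250 bases before 5 of the 13 genes of this list (38.5%) and in 12.9% of the windows of all genes tested. It stood in 43.5% of the root hair windows and in 13.6% of those of genes called higher, so a high share is not particular to the cold list. ACGTG, the core of the abscisic acid response element, stood before 7 of the 13 genes (53.85%) and in 23.7% of the windows of all genes tested. Among called genes ACGTG stood in 33.9% of the windows of those higher and 37.9% of those lower. Of the 5 genes with CCGAC, RD29A, LTI30 and COR413PM1 were called higher, RD29B was not, and COR15A was not tested. RD29A and LTI30 carry 3 matches to CCGAC each, and the RD29A window is shown, with these matches in capitals, at 140, 90 and 33 bases before the start (RefSeq, TAIR10.1, chr5:21240467-21240716, plus strand, 5′ to 3′).
RD29A: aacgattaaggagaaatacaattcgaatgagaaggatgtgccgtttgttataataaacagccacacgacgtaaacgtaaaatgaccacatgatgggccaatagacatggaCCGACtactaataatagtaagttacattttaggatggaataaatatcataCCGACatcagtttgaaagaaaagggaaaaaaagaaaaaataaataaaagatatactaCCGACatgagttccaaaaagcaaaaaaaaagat

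Triterpene genes lie in clusters of the genome and are known to be expressed in roots. Of 13 tested 7 (53.8%) were called higher and 0 lower, with a median of 0.65, and 2 held without the block. PEN3 (AT5G36150, chromosome 5 of TAIR10 from 14220634 to 14226211), here the putative triterpene synthase and not the ABC transporter of the same name, had 36.7, 33.2 and 56.0 normalized counts in mock and 189, 146 and 297 after BAP (log2 fold change 2.27, SE 0.21, adjusted p = 0.018, limma), with changes of 2.33, 2.1 and 2.39 in the pairs. CYP716A2, a P450 gene beside it, had 42.8, 50.6 and 78.4 normalized counts in mock and 255, 115 and 129 after BAP (log2 fold change 1.48, SE 0.34, unadjusted p = 0.0023, limma). In the thalianol cluster the acyltransferase gene THAA1 (log2 fold change 1.08, SE 0.19, unadjusted p = 0.00039, limma), the synthase gene THAS1 (log2 fold change 0.74) and its neighbours THAD (0.65) and THAH (0.65) were called, as was the squalene epoxidase gene SQE3 (0.84). In the marneral cluster MRN1 had 4196, 1519 and 2912 normalized counts in mock and 12961, 1568 and 3005 after BAP (log2 fold change 0.57, SE 0.27) and was not called, as the rise was confined to pair 1. PEN1 (log2 fold change 0.12, SE 0.15) and CYP705A1 (-0.08, SE 0.15) of a cluster on chromosome 4 were within error of 0.

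**Figure D3:**
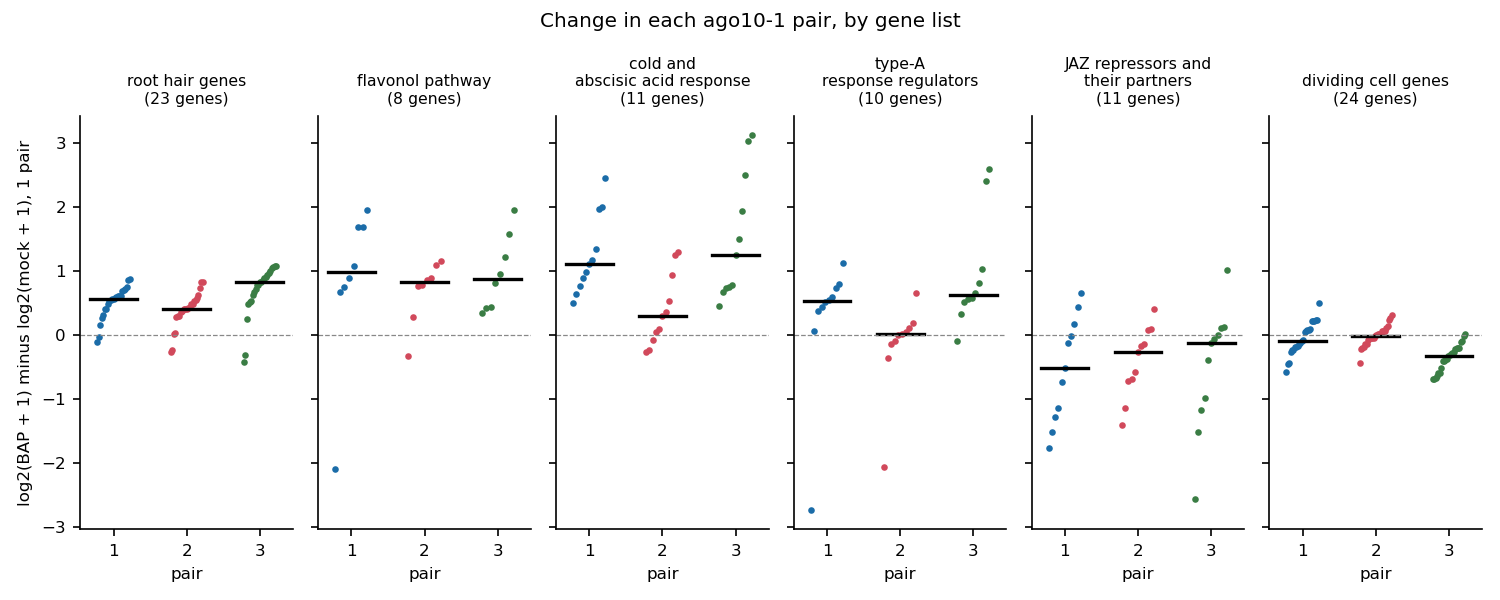
Log2 change of each gene (1 point) in each of the 3 ago10-1 pairs for 6 gene lists, with the list median as a bar. Pair 2 lies near 0 for the type-A response regulators, with a median of 0.02, and well above 0 for root hair and flavonol genes, with 0.41 and 0.83.

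Besides the redox list, calls of lower genes came in 3 lists, those of the JAZ repressors, of jasmonate synthesis and catabolism, and of early wounding. JAZ proteins repress the jasmonate response and are themselves induced by it. Of 11 genes tested in the list of JAZ repressors and their partners 3 (27.3%, against 0.495% of all genes) were called lower and 0 higher, with a median of -0.47. JAZ2 had 684, 643 and 849 normalized counts in mock and 410.2, 433 and 429 after BAP (log2 fold change -0.76, SE 0.12, adjusted p = 0.061, limma), and the groups were well apart. JAZ10 had 127, 175 and 380.0 normalized counts in mock and 51.7, 108 and 133 after BAP (log2 fold change -1.16, SE 0.21, adjusted p = 0.079, limma), with groups that overlapped. JAM1, a bHLH repressor of the same response, had 186, 182 and 229 normalized counts in mock and 53.9, 111 and 102 after BAP (log2 fold change -1.21, SE 0.23, adjusted p = 0.083, limma). JAZ2 and JAM1 were also called without the block. MYC2, the main activator, was listed at 0 in all 6 libraries and overlaps an annotated neighbour, so no change in it could be assessed.

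Jasmonate synthesis and catabolism had 3 of 14 genes called higher and 3 lower (21.4% each, against 4.60% and 0.495% of all genes). The list median was 0.002, with 7 of the 14 estimates positive. Synthesis genes made up the calls of lower genes. AOS, allene oxide synthase, had 585, 584 and 731 normalized counts in mock and 391, 404 and 382 after BAP (log2 fold change -0.68, SE 0.13, unadjusted p = 0.00065, limma), LOX4, a lipoxygenase, 66.1, 45.8 and 84.5 normalized counts in mock and 33.7, 16.7 and 38.0 after BAP (log2 fold change -1.16, SE 0.29, unadjusted p = 0.0038, limma), and OPCL1 915, 808 and 1013 normalized counts in mock and 655, 704 and 712 after BAP (log2 fold change -0.40, SE 0.11, unadjusted p = 0.0065, limma). In all 3 genes the groups did not overlap. Called higher were genes of catabolism. CYP94B1, which oxidises the active conjugate, had 97.9, 111 and 228 normalized counts in mock and 279, 227 and 596 after BAP (log2 fold change 1.31, SE 0.16, adjusted p = 0.032, limma), JOX2, which hydroxylates jasmonate, 1146, 806 and 1017 normalized counts in mock and 2233, 1093 and 2189 after BAP (log2 fold change 0.84, SE 0.13, unadjusted p = 0.00022, limma), and CYP94B3 a log2 fold change of 0.68. Of these 6 genes AOS alone was called without the block.

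Of 21 early wound and touch genes tested 4 (19.0%, against 0.495% of all genes) were called lower and 1 (4.76%, against 4.60%) higher. ERF13, an ethylene response factor, had the largest fall, with 61.2, 49.0 and 65.5 normalized counts in mock and 4.50, 10.43 and 12.2 after BAP (log2 fold change -2.66, SE 0.43, unadjusted p = 0.00024, limma), from few reads. CAF1A, a deadenylase, had 108, 86.9 and 67.2 normalized counts in mock and 24.7, 27.1 and 9.13 after BAP (log2 fold change -2.16, SE 0.33, unadjusted p = 0.00017, limma). WRKY40 had 306, 186 and 256 normalized counts in mock and 95.5, 97.0 and 116 after BAP (log2 fold change -1.25, SE 0.20, unadjusted p = 0.00021, limma). In these 3 genes every BAP library was below every mock library and the call held without the block. The calmodulin-like gene CML39 had 78.3, 164 and 226 normalized counts in mock and 58.4, 54.2 and 82.1 after BAP (log2 fold change -1.15, SE 0.27, unadjusted p = 0.0027, limma). NHL10 was higher (log2 fold change 1.11, SE 0.27, unadjusted p = 0.0034, limma). Others of the list did not move, such as WRKY33 (log2 fold change 0.01, SE 0.10) and TCH3 (0.01, SE 0.28).

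Outside the lists, the 10 largest falls held PROPEP1, the precursor of a defence peptide, with 196, 96.4 and 114 normalized counts in mock and 98.9, 39.6 and 47.9 after BAP (log2 fold change -1.16, SE 0.21, unadjusted p = 0.0006, limma), AT2G21640, annotated as a marker of oxidative stress, with 252, 91.6 and 67.2 normalized counts in mock and 67.4, 51.1 and 30.4 after BAP (log2 fold change -1.28, SE 0.27, unadjusted p = 0.0015, limma), and the methyltransferase family gene AT3G44870, with 52.6, 75.8 and 362 normalized counts in mock and 11.2, 44.8 and 141 after BAP (log2 fold change -1.41, SE 0.30, unadjusted p = 0.0016, limma). The last differed more between pairs than between treatments. AT1G11125 (log2 fold change -1.05) and CYP705A23 (-0.94) completed them.

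**Figure D4:**
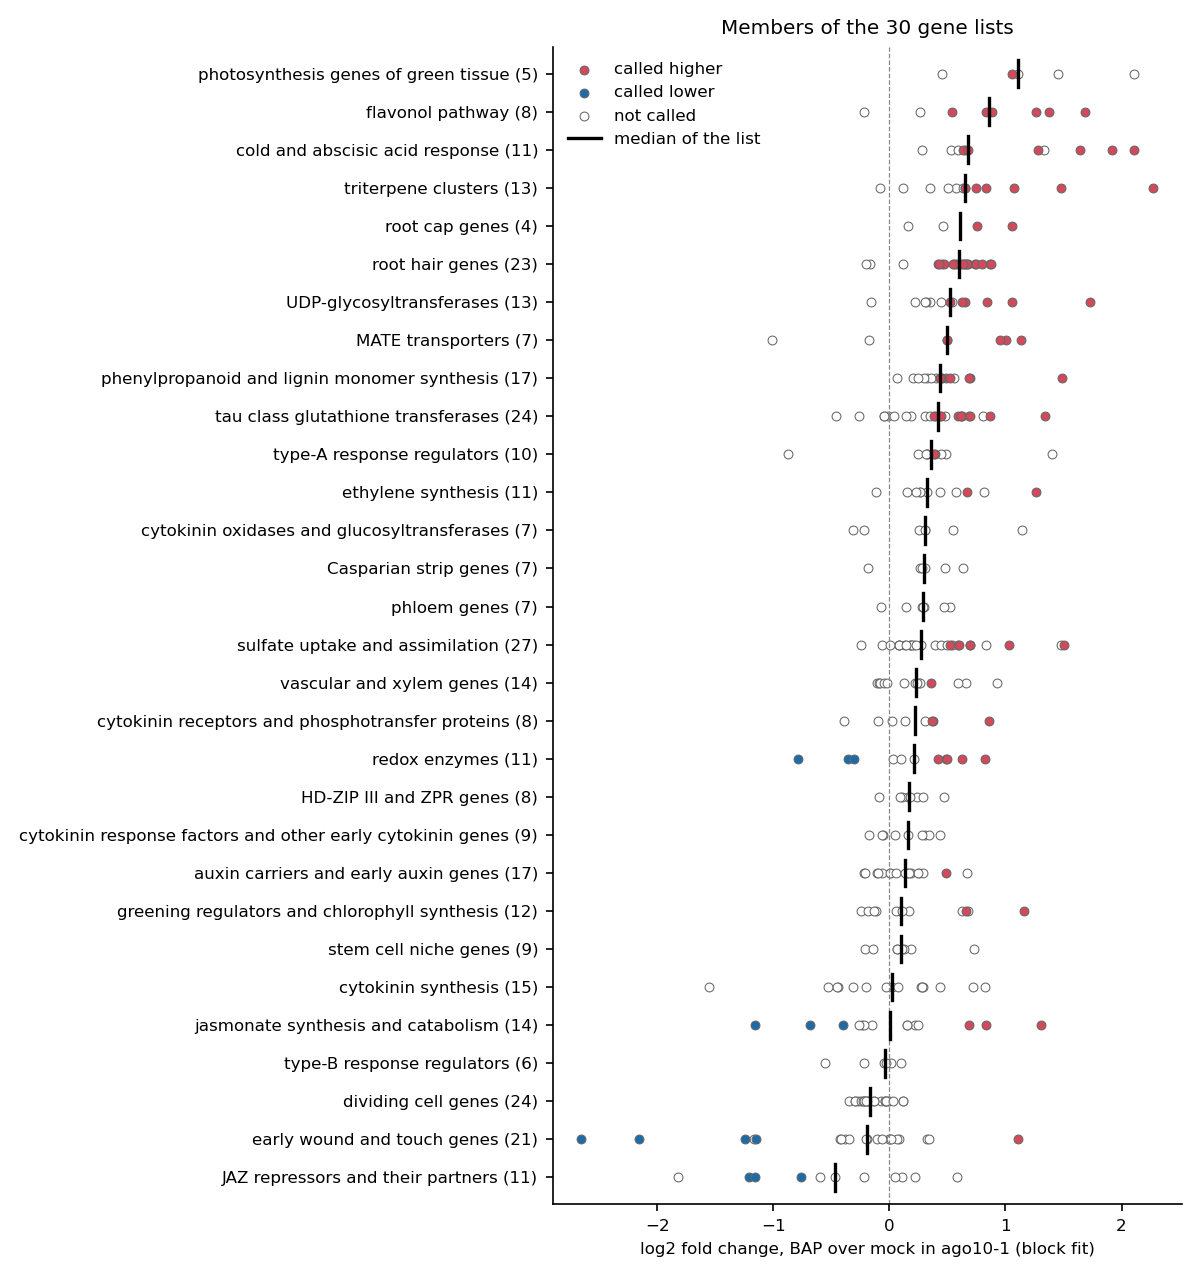
Log2 fold changes of BAP over mock in ago10-1 for the tested members (points, with their number in brackets) of the 30 gene lists, ordered by median (bar). Filled points are called higher or lower at an unadjusted p under 0.01 in limma. Root hair genes form a narrow group with 20 of 23 called higher, and the 3 lowest lists are dividing cell genes, early wound and touch genes, and JAZ repressors and their partners.

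Genes of the developmental programmes in which AGO10 and cytokinin are known to act gave few calls. Of the HD-ZIP III genes, PHB had 1135, 929 and 909 normalized counts in mock and 1068, 870.5 and 859 after BAP (log2 fold change -0.09, SE 0.09), REV 1452, 1196 and 1103 normalized counts in mock and 1697, 1348 and 1173 after BAP (0.16, SE 0.09) and CNA 903, 801 and 849.7 normalized counts in mock and 1056, 1030.0 and 929 after BAP (0.24, SE 0.10). PHV (0.10, SE 0.13) and ATHB8 (0.09, SE 0.12) were close to 0, and with the inhibitor genes ZPR1 (0.29, SE 0.18) and ZPR4 (0.47, SE 0.21) 0 of 8 were called. XCP1, a protease of xylem vessels, was the 1 gene called higher of 14 vascular and xylem genes (median 0.23), with 4182, 2004 and 2521 normalized counts in mock and 5201, 2713 and 3144 after BAP (log2 fold change 0.36, SE 0.08, unadjusted p = 0.0022, limma). No call was made among 7 phloem genes (median 0.29, with APL at 0.30, SUC2 at 0.15, NAC45 at 0.47 and SEOR1 at 0.52), 9 stem cell niche genes (median 0.10, with WOX5 at 0.73, SE 0.43, SHR at -0.21, SE 0.10, MGP at 0.19 and BBM at -0.15) or 7 Casparian strip genes (median 0.30, with MYB36 at 0.48 and CASP2 and CASP4 at 0.27 and 0.30). The last had medians of 0.38, -0.13 and 0.56 in the pairs. In the dividing cell list KNOLLE had the smallest p (log2 fold change -0.35, SE 0.12, unadjusted p = 0.022, limma), with 905, 1073 and 999 normalized counts in mock and 793, 939 and 627 after BAP. CDC20.1, CYCA3;2 and CYCB1;2 had estimates of -0.30, -0.27 and -0.29, none past the threshold.

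Ethylene synthesis had 2 of 11 genes called higher (18.2%, against 4.60% of all genes, median 0.32), ACS7 with 78.3, 101 and 107 normalized counts in mock and 238, 119 and 421 after BAP (log2 fold change 1.26, SE 0.31, unadjusted p = 0.0034, limma) and ACO1 with 135, 136 and 196 normalized counts in mock and 169, 206 and 415 after BAP (log2 fold change 0.67, SE 0.19, unadjusted p = 0.0072, limma). Both steps of the pathway, the synthase and the oxidase, were thus represented. Of 17 auxin carriers and early auxin genes only IAA2 was called higher, with 1148, 909.9 and 1112 normalized counts in mock and 1519, 1143 and 1852 after BAP (log2 fold change 0.49, SE 0.11, unadjusted p = 0.0018, limma), a share of 5.88% that is close to the 4.60% of all genes. Of 12 greening regulators and chlorophyll synthesis genes 2 were called higher (16.7%, against 4.60%), both also without the block. They were BBX20, a B-box regulator, with 440.5, 953 and 503 normalized counts in mock and 1106, 1099 and 1938 after BAP (log2 fold change 1.16, SE 0.27, unadjusted p = 0.0024, limma), and CHLH, a subunit of magnesium chelatase, with 582, 635 and 729 normalized counts in mock and 1117, 794 and 1200.0 after BAP (log2 fold change 0.66, SE 0.13, unadjusted p = 0.00098, limma). LHCB3, a light-harvesting protein gene, was called among 5 photosynthesis genes (20%, against 4.60%, median 1.11), with 63.6, 35.5 and 32.7 normalized counts in mock and 135, 52.1 and 98.1 after BAP. Of 4 root cap genes BRN1 (416, 137 and 486 normalized counts in mock and 494, 348 and 773 after BAP, log2 fold change 0.75, SE 0.20, unadjusted p = 0.0049, limma) and BFN1 (299, 46.6 and 153 normalized counts in mock and 456, 149 and 284 after BAP, log2 fold change 1.05, SE 0.22, unadjusted p = 0.0013, limma), a nuclease of dying cap cells, were called higher (50% of the list, against 4.60% of all genes). Both had their largest change in pair 2, where the mock library was the lowest of all.

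Whether ago10-1 responded otherwise than Col-0 was tested as the interaction of genotype and BAP over all 12 libraries, without a block. At an unadjusted p under 0.01 limma called 4 of 19206 genes (0.0208%), 1 with a positive and 3 with a negative difference (ago10-1 minus Col-0), where about 192 would come from chance. None had an adjusted p under 0.05, and 89 had an unadjusted p under 0.05. The 4 calls are fewer than chance would give. With no block, differences between replicates count as error, and in ago10-1 alone leaving out the block took the calls from 979 to 109. Such a test can miss differences, and few calls do not mean that the genotypes respond alike. For the lists above the estimates therefore stand side by side with no difference called except in the JAZ list. The median log2 fold change of the root hair genes was 0.60 in ago10-1 and 0.20 in Col-0, that of the flavonol pathway 0.86 and 1.08, that of the cold and abscisic acid genes 0.68 and 1.09, and that of the type-A response regulators 0.35 and 0.38. The JAZ repressors and their partners had -0.47 in ago10-1 and 0.26 in Col-0, where 11 of 11 estimates were positive, and the 4 root cap genes 0.60 and -0.20. The Col-0 values come from a fit with no block, since a pair of Col-0 mock columns share a heading.

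JAZ2 and JAM1 were called both in this test and within ago10-1. JAZ2 stood at 289, 359 and 373 in Col-0 mock, 497, 419 and 322 in Col-0 BAP, 684, 643 and 849 in ago10-1 mock and 410.2, 433 and 429 in ago10-1 BAP. The ago10-1 mock libraries were above all others, and after BAP the genotypes overlapped (difference of the log2 fold changes, ago10-1 minus Col-0, -1.03, SE 0.25, unadjusted p = 0.0016, limma). JAM1 stood at 73.3, 78.3 and 76.7 in Col-0 mock, 82.1, 81.0 and 76.5 in Col-0 BAP, 186, 182 and 229 in ago10-1 mock and 53.9, 111 and 102 in ago10-1 BAP. Here too the ago10-1 mock libraries were above all others, and after BAP the genotypes overlapped (difference -1.28, SE 0.36, unadjusted p = 0.0044, limma). In both genes the fall after BAP in the mutant started from a mock level above that of Col-0.

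**Figure D5:**
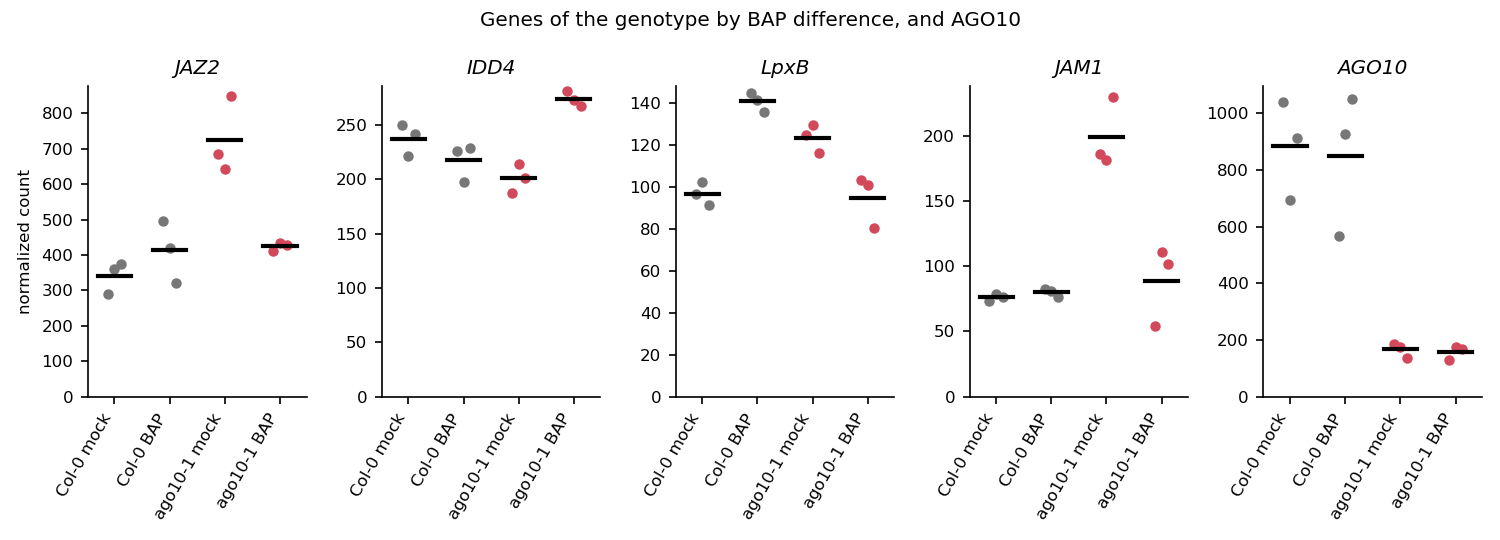
Normalized counts (linear axis from 0) of the 4 genes with an unadjusted p under 0.01 in the interaction and of AGO10, with 1 point per library and the group mean as a bar. For JAZ2 and JAM1 the ago10-1 mock libraries stand above the other 3 groups, and AGO10 is low in all 6 ago10-1 libraries.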

How the data were processed

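RNA of root tips was sequenced in 12 libraries, 3 per genotype and treatment. The authors aligned the reads with STAR to TAIR10, counted them per gene with featureCounts (TAIR10.42 annotation) and divided the counts by DESeq2 size factors. This signal, normalized counts as deposited for 32833 genes, was used as it is. Tool versions and strandedness are not given in the sources used here. All values were whole multiples of 1 read (100%), and the reads so recovered gave the depth, 19394256 to 34899796 per library.

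The contrast BAP minus mock was fitted with limma 3.58.1 (R 4.3.3; limma-trend, empirical Bayes, two-sided) on log2(value + 1) of the 6 ago10-1 libraries with the replicate number as block (2 residual and 6.21 prior degrees of freedom), for 19206 genes with a mean of at least 10 over the 12 libraries. Fold changes on this scale understate changes of low genes. Genes are called at an unadjusted p under 0.01, the study's threshold. Same-numbered libraries deviated together from their group means (correlations across genes 0.67, 0.41 and 0.43 for numbers 1, 2 and 3), so the numbers were taken as pairs. Differently numbered libraries had correlations of -0.56 to 0.32, the highest for mock 3 with BAP 2, so numbers 2 and 3 are set apart less clearly than number 1. The labels call the libraries biological replicates and do not say whether they differ in plants, plates or days. The p-values of the block fit measure the spread of the change between these 3 pairs, moderated by the spread seen in other genes. Those of the fits with no block measure the spread between libraries of a group. Alternatives were other pseudocounts, filters, scaling (TMM), edgeR 4.0.16 and DESeq2 1.42.0 on the recovered reads, no block, and leaving out pairs or libraries.

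Genes named are the 10 largest changes in each direction (mean of at least 50 over the 6 libraries, same direction in 3 pairs), up to 30 of smallest p with an adjusted p under 0.05, the called members of each list (4 of smallest p where more than 6 or none were called), all type-A response regulators, the HD-ZIP III genes, AGO10 and genes of the interaction called in ago10-1. Any other list member in the text was picked with its values known. One gene that the rule names is not reported here. The 30 lists (424 genes, 373 tested) and all members were chosen with earlier results of these data known and are not independent support. Symbols come from the lists or RefSeq (32548 of 32833 IDs matched). Of the 104 named genes that were called 28 overlap another gene in the reference. Promoter windows are the 250 bases before the gene start in the TAIR10.1 reference, whose gene coordinates equalled the TAIR10 ones listed with the study for 458 of 458 genes compared. The G-box and TGACG, the core bound by TGA factors, were searched as well. Their shares are not given, except that of the G-box beside the root hair element. One heading stands on 2 Col-0 mock columns, called A and B.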

Additional observations from a re-analysis of the deposited data

Results flagged for a closer look

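The difference between the responses of the genotypes passed an unadjusted p under 0.01 in 4 genes. For each, the value is the log2 fold change of BAP over mock in ago10-1 minus that in Col-0, from limma over 12 libraries. In limma it was -1.03 for JAZ2 (SE 0.25, unadjusted p = 0.0016) and -1.28 for JAM1 (SE 0.36, unadjusted p = 0.0044), whose levels are given above. In limma it was 0.57 for IDD4 (SE 0.18, unadjusted p = 0.0084), an INDETERMINATE DOMAIN zinc finger gene, with 187, 214 and 200.8 normalized counts in ago10-1 mock and 281, 273 and 268 after BAP against 249, 221 and 241 and 226, 198 and 228 in Col-0. In limma it was -0.92 for LpxB (SE 0.23, unadjusted p = 0.0021), a glycosyltransferase gene of lipid A-type synthesis, with 125, 129.5 and 116 and 103, 101 and 80.6 in ago10-1 against 96.9, 103 and 91.4 and 145, 142 and 136 in Col-0. In LpxB all Col-0 BAP libraries lay above all Col-0 mock libraries and all ago10-1 BAP libraries below all ago10-1 mock libraries. IDD4 and LpxB were not called within ago10-1 and are named because the count is small. The adjusted p of each difference was 1, so none passes correction over 19206 genes.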

How the results depend on the processing

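The replicate block decided the count of calls in ago10-1. Against 979 with the block, limma gave 109 with no replicate block, 422 with replicate 1 set against replicates 2 and 3 as the block, and DESeq2 with no replicate block 291. With the block but no filter on low values the count was 498, of which 268 were among the 979, and the share that was higher moved from 90.3% to 68.3%. Leaving out replicate pairs in the block fit, where removing 1 library removes its pair, gave 281 to 2994 calls, and leaving out single libraries with no block gave 28 to 623 (66, 56 and 57 without mock 1, 2 and 3, and 91, 623 and 28 without BAP 1, 2 and 3). In the former, the 2994 without pair 2 held 921 of the 979. The other settings with the block (pseudocounts of 0.5 and 5, a mean of at least 50, TMM scaling, edgeR and DESeq2) gave 921 to 1046. Genes with an adjusted p under 0.05 numbered 51 with the block in limma, 80 with TMM scaling, 73 with edgeR, 549 with DESeq2, 24 with DESeq2 with no block, 85, 2635 and 0 without pairs 1, 2 and 3, and 0 with no block or no filter. The causes of these differences were not tested. Of the 104 named genes that were called, 104 stayed called with edgeR, 99 with DESeq2 and 33 with no block, and none changed direction under any setting. Scaling by TMM left the median gene at 0.01.

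The count of the genotype difference was 4, and 15 with replicate 1 as a replicate block within genotype, 6 with a pseudocount of 5, 5 with edgeR and 4 with a mean of at least 50. Without 1 library it was 4 to 39. It was 7 without mock 1 of ago10-1 and without mock 1 or A of Col-0, 8 without BAP 2 or 3 of ago10-1, 11 without BAP 3 of Col-0 and 39 without BAP 1 of Col-0. AGO10 in ago10-1 stayed at 15.9% to 21.1% of Col-0 when any 1 library was left out. Few reads limit ARR7, ARR16, ARR17 and CKX4.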

Other observations

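Gene families by product name were picked after their values were seen and are given as a description. They include genes already reported above, such as XTH13, PER7 and THAA1. Of 34 genes tested whose product name contains the word extensin, 17 (50.0%, against 4.60% of all genes) were called higher and 0 lower. Their median log2 fold change was 0.45. Of 22 xyloglucan endotransglucosylase/hydrolases 6 (27.3%) were called higher and 1 lower, and of 19 expansins 3 (15.8%) higher with a median of 0.02. Among 38 HXXXD-type acyl-transferases 8 (21.1%), among 56 peroxidases 10 (17.9%), among 29 serine carboxypeptidase-like genes 6 (20.7%) and among 118 cytochrome P450 genes 14 (11.9%) were called higher. Of the P450 genes 2 (1.69%, against 0.495% of all genes) were called lower.

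Estimates for ribosomal protein genes lay mostly below 0. Of 169 genes for large subunit ribosomal proteins 0 were called higher and 3 lower (1.78%, against 0.495% of all genes), with a median of -0.16 and medians of -0.19, -0.09 and -0.22 in pairs 1, 2 and 3. Of 104 small subunit genes 0 were called higher and 3 lower (2.88%), with a median of -0.17, medians of -0.19, -0.08 and -0.23 in the pairs and 7 of 104 estimates positive. Of 235 pentatricopeptide repeat genes, which act on organelle RNA, 0 were called in either direction (median -0.15, with -0.20, 0.05 and -0.30 in the pairs, so that pair 2 went the other way). Members of a family share processing and are not replicates.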
